A study of Mus musculus with 4 samples.

Results

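The AP-1 and Egr immediate early genes were described in CD51+;CD200+ cells of 3 cranial sutures and of the tibial growth plate. The set held 10 genes of the 23946 gene symbols in each library: *Fos*, *Fosb*, *Fosl2*, *Jun*, *Junb*, *Jund*, *Egr1*, *Egr2*, *Egr3*, and *Atf3*. They were taken by symbol, and the set was chosen by family and selected on earlier measured values of these same libraries, so every difference between libraries given for them is a description and carries no test. All cells came from wild-type CD-1 mice at postnatal day 3, with no treatment, and were sorted from 3 sutures of the skull, PF (posterior frontal), SAG (sagittal), and COR (coronal), and from the growth plate (GP) of the tibia. The cells were pooled from many mice, freed from the tissue with enzymes, and sorted by FACS as positive for CD51 and CD200 and negative for blood, endothelial, and other stromal antigens (6C3, CD105, Thy1.1, Thy1.2, Tie2, CD45, Ter119), a gate used for skeletal stem and progenitor cells. The PF suture is the suture that closes in early life, the SAG and COR sutures remain patent, and the GP served as the reference. Each tissue had 1 RNA-seq library, so no replicate error exists and a difference between libraries cannot be told apart from a difference between those sorts.

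Immediate early genes are transcribed within minutes of a signal, without new protein synthesis, through MAP kinases that act on serum response factor with its Elk partners and on CREB at the gene's promoter. Their transcripts are short-lived. AP-1 is a dimer of basic leucine zipper proteins: Fos proteins pair with Jun proteins, while Jun proteins can also pair with each other, and Atf3 is a related zipper protein induced by stress. The Egr proteins are zinc finger transcription factors that bind GC-rich DNA. In skeletal cells AP-1 and Egr factors are known for their part in the response to load and growth factors, and Fos and Jun family members for their part in osteoblast and osteoclast differentiation.

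The promoters are shown first. Several of the genes that differed between libraries hold the same short element there, while *Jun*, which also differed, has none in its window. Whether the element had a part in the differences was not tested. RefSeq windows (GRCm38.p6) were used for 8 of the 10 genes, as 12 windows of 250 bases before an annotated start, of which 5 belong to *Egr2*. No window of *Egr1* or *Egr3* was searched, so the counts of matches do not cover these genes. Each window occurred once, base for base, on the same chromosome of mm9, the build of the expression files. The mm9 positions were chr12:86814590-86814839 (plus strand) for *Fos*, chr7:19895395-19895644 (minus strand) for *Fosb*, chr8:87502648-87502897 (minus strand) for *Junb*, and chr5:32438595-32438844 (plus strand) for *Fosl2*, the last shown as a gene whose level hardly differed. Capitals mark TGACG, the core of the cAMP response element, read on either strand, and the TATA box TATAAA, read on the strand of the gene.
Fos: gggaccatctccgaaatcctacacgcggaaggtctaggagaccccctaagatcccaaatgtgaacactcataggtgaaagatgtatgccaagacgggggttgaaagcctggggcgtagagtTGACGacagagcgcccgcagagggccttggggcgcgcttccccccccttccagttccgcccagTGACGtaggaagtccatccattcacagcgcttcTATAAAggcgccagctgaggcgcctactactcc
Fosb: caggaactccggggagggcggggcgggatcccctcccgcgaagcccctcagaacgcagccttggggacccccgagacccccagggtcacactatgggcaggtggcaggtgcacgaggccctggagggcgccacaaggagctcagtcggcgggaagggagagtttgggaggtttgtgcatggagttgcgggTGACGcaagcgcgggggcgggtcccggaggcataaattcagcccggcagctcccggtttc
Junb: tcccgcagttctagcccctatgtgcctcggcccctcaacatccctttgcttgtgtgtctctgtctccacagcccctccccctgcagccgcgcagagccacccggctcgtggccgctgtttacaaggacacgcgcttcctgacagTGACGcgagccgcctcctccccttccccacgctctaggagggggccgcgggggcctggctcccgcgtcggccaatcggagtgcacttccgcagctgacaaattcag
Fosl2: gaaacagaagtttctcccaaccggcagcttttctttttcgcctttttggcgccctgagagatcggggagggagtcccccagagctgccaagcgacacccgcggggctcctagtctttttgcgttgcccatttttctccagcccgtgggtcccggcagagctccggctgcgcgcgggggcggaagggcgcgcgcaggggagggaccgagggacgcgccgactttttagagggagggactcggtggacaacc
The core element stood 129 and 66 bases before the start in *Fos*, 60 bases before it in *Fosb*, and 106 bases before it in *Junb*, and the *Fos* TATA box stood 33 bases before the start. Of the other genes, *Atf3* held a core element 7 bases before its start and *Egr2* held core elements before 3 of its 5 annotated starts, 111 and 55 bases before the first of those 3, while the *Jun*, *Jund*, and *Fosl2* windows held none. That made 5 of the 8 genes. Over all 27025 genes with windows of the same length, 19.8% held the core in at least 1 window, and over all 32851 windows 17.8% held it. *Egr2*, with its 5 windows, had more chances of a match than a gene with 1. Its 3 windows with a core element overlap and hold the same 2 elements. A CArG box, the binding element of serum response factor, was matched in 1 gene, *Egr2*, 72 bases before a start, against 1.62% of all genes. The TATA box was matched in 1 gene against 8.94% of all genes, and the GC box GGGCGG, read on either strand, in 6 genes against 35.4%. Neither the AP-1 site TGANTCA (6.75% of windows) nor the full cAMP response element TGACGTCA (1.55%), which contains the core, was matched in any of the 12 windows. A match in these letters is a description and does not show that a factor was bound.

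Expression was given in units of FPKM, in which fragment numbers are divided by the length of the transcript and the size of the library, so levels can be compared between genes. The 10 genes summed to 6909 FPKM in SAG, 1169 in GP, 703 in COR, and 586 in PF. These sums were 1.55% of all FPKM in SAG, 0.227% in GP, 0.143% in COR, and 0.106% in PF. In the SAG library 4 of the 10 genes were among the 25 highest of all genes, and in the other libraries 0 were among the highest 100. The transcripts were 1416 bases (*Egr3*) to 5855 bases (*Fosl2*) long, with 51.4% (*Egr2*) to 62.7% (*Jund*) GC. An FPKM of 1 or more was listed for 7 of the genes in PF, 9 in SAG, and 10 in both COR and GP. The size of the steps between low values put the depth of the PF library at 44.5% of that of SAG, with COR at 87.4% and GP at 83.0%.

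**Figure D1:**
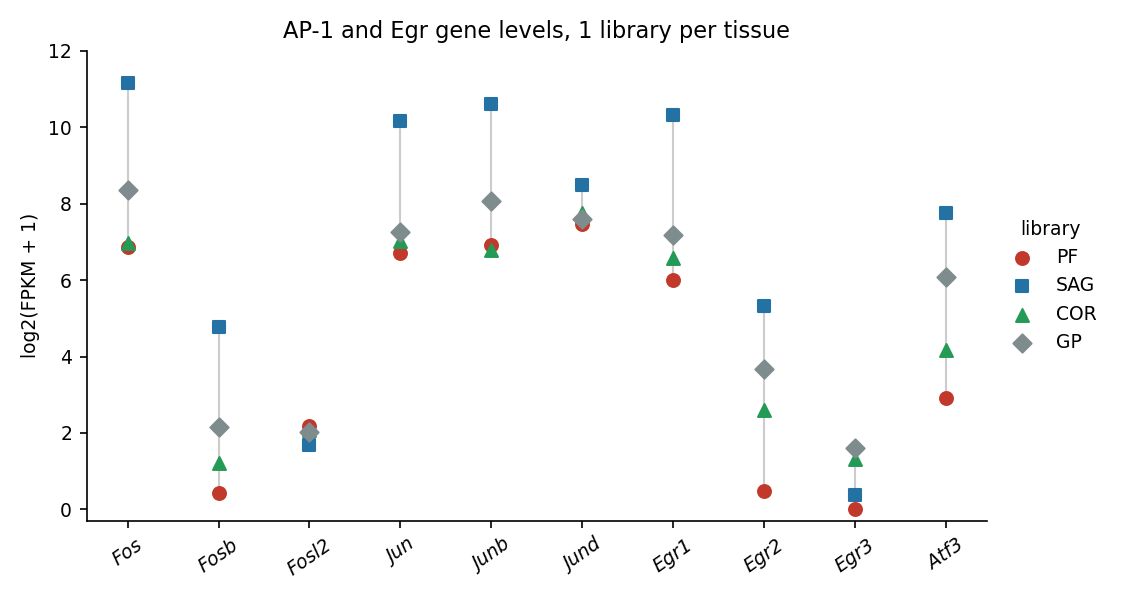
Level of each of the 10 genes, as log2(FPKM + 1), in the 1 library of each tissue, with a line from the lowest to the highest library. The SAG square is on top for 8 of the 10 genes, while *Fosl2* has nearly the same level in each library and *Egr3* is highest in GP.

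Among the Fos proteins, which need a Jun partner to bind DNA, *Fos* (chr12:86814840-86818223, plus strand, mm9) was at 2298 FPKM in SAG, 327 in GP, 124 in COR, and 115 in PF. It was the gene with rank 8 of all genes in the SAG library and had rank 898 in PF, 774 in COR, and 272 in GP. SAG stood apart, GP came next, and PF and COR were close together, with 1.08 times as much *Fos* in COR as in PF. *Fosb* (chr7:19888070-19895394, minus strand) was a minor transcript with the same order of libraries, at 26.4 FPKM in SAG, 3.50 in GP, 1.32 in COR, and 0.340 in PF. By the step size the PF value of *Fosb* rested on about 22 fragments. *Fosl2* (chr5:32438845-32460204, plus strand), a Fos family gene with a more sustained expression, was at 2.198 FPKM in SAG, 3.05 in GP, 3.26 in COR, and 3.55 in PF. It was the one gene of the 10 that was lowest in SAG, and its highest library exceeded its lowest by 1.62 times.

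Of the Jun genes, *Jun* (chr4:94715725-94718913, minus strand), whose protein is the main target of the JNK kinases, was at 1142 FPKM in SAG, 151 in GP, 130.2 in COR, and 103 in PF. *Junb* (chr8:87500811-87502617, minus strand), often a weaker activator than Jun, was at 1553 FPKM in SAG, 268 in GP, 109 in COR, and 119 in PF. Both were highest in SAG, with ranks 21 and 15 of all genes there. *Jun* differed by at most 1.46 times among the other libraries, whereas *Junb* in GP was 2.47 times its COR level. *Jund* (chr8:73221638-73224515, plus strand), a Jun gene that cells express without stimulation, was at 355 FPKM in SAG, 192 in GP, 217 in COR, and 175 in PF. The order of *Jund* was the same at the ends, SAG highest and PF lowest, but its whole range was 2.03 times.

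*Egr1*, whose protein activates growth factor and matrix genes, was at 1279 FPKM in SAG, 145 in GP, 95.0 in COR, and 63.5 in PF. It ranked 20 in SAG and 1647 in PF. *Egr2* (chr10:66998223-67004936, plus strand), known for its role in myelination and the hindbrain, was at 39.2 FPKM in SAG, 11.7 in GP, 5.09 in COR, and 0.402 in PF. *Egr1* and *Egr2* had the order SAG, GP, COR, PF from high to low. The PF value of *Egr2* rested on about 21 fragments. *Egr3* (chr14:70477252-70479964, plus strand) was at 2.04 FPKM in GP, 1.51 in COR, and 0.296 in SAG, and was listed at 0 in PF. It was the one gene of the 10 that was highest in GP, and its SAG value rested on about 16 fragments, so *Egr3* in PF and SAG was close to the lowest level that could be seen at this depth. A value of 0 in these files can also be an estimate that was not made.

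*Atf3* (chr1:192994175-193007219, minus strand), induced in many stressed cells, was at 213 FPKM in SAG, 66.5 in GP, 17.1 in COR, and 6.54 in PF. The 4 libraries were well spaced for *Atf3*, with SAG 32.6 times the PF level and GP 10.2 times. The order SAG, GP, COR, PF held for 6 of the 10 genes: *Fos*, *Fosb*, *Jun*, *Egr1*, *Egr2*, and *Atf3*. The same order was found for 9.12% of the 13998 genes that reached an FPKM of 1 in any library. SAG was highest for 8 of the 10 genes against 28.4% of all genes, and PF was lowest for 8 against 34.3%. The exceptions for SAG were *Fosl2* and *Egr3*, and those for PF were *Fosl2* and *Junb*.

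The contrast between the fusing PF suture and the patent SAG suture was the widest of the 6 comparisons by the median ratio of the 10 genes. Ratios were taken on the scale of log2(FPKM + 1), which understates the difference of low genes, for genes that reached an FPKM of 1 in either library, and a gene was counted at 3-fold or more. In PF 7 of the 9 genes compared were 3-fold or more lower than in SAG: *Fos*, *Fosb*, *Jun*, *Junb*, *Egr1*, *Egr2*, and *Atf3*. Of all 13490 genes compared, 9.04% were 3-fold or more lower in PF and 6.64% higher. The 7 log2 ratios ran from -4.84 for *Egr2* to -3.46 for *Jun*. *Fos* was 20.0-fold lower in PF by the plain ratio of FPKM and *Egr1* 20.1-fold lower. Only 49 of the genes compared lay farther than *Fos* in that direction, on the log2(FPKM + 1) scale. *Jund*, at a log2 ratio of -1.02, and *Fosl2*, at 0.51, were under 3-fold apart, and *Egr3* was under an FPKM of 1 in both libraries. The median log2 ratio over the 9 genes was -4.31, and over all genes compared it was 0.03.

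Other measured features of the SAG library are given beside these genes, some higher in SAG and some lower. Transcripts of choroid plexus, the brain epithelium that secretes cerebrospinal fluid, summed over 5 markers to 5170 FPKM in SAG, 469 in PF, 143 in COR, and 10.5 in GP, with *Ttr* alone at 5103, 465, 141, and 9.74 FPKM. Cartilage markers summed over 6 genes to 3321 FPKM in SAG, 109 in PF, 107 in COR, and 2264 in GP. None of either list was listed at 0 in any library. Of the choroid plexus markers all 4 compared were 3-fold or more higher in SAG than in each other library, and of the 6 cartilage markers 5 were higher in SAG than in PF, 5 than in COR, and 2 than in GP. Skeletal markers summed over 7 genes to 319 FPKM in SAG against 1144 in PF, 3408 in COR, and 1367 in GP, and 3 of the 7 were 3-fold or more lower in SAG than in PF, 6 than in COR, and 3 than in GP. Of all genes compared, 9.04% were that much higher in SAG than in PF, 6.15% than in COR, and 4.8% than in GP. The shares that were lower in SAG were 6.64%, 3.11%, and 3.86%. Neuron markers summed over 6 genes to 6.41 FPKM in SAG, 2.31 in PF, 10.3 in COR, and 2.65 in GP. The COR sum was mostly *Tubb3*, at 10.2 FPKM. An FPKM of 1 or more was listed for 4 of the 6 in SAG and for 1 in each other library. *Snap25* was at 2.21 FPKM in SAG and at 0 in the others, while *Elavl3* was listed at 0 in SAG, COR, and GP. Leukocyte markers summed over 8 genes to 13.2 FPKM in SAG and between 7.87 and 44.2 in the others, with *Emr1* and *Itgam* listed at 0 in SAG and in COR. In SAG *Lyz2* was at 7.53 FPKM, *Cd68* at 3.01, and *Cd74* at 1.75. An FPKM of 1 or more was listed for 3 of the 8 in SAG, 3 in PF, and 2 in both COR and GP. The genes of the sorted antigens, *Itgav* for CD51 and *Cd200*, summed to 54.3 FPKM in SAG and to between 36.2 and 77.6 in the others. Those of 5 antigens sorted against summed to at most 9.63 FPKM, and endothelial, red cell, and muscle markers to at most 33.8, 15.6, and 10.8, each highest in PF. The PF endothelial sum was mostly *Esam*, at 29.5 FPKM against 0.727 in SAG. Another endothelial marker, *Kdr*, was highest in SAG, at 14.9 FPKM against 2.12 in PF, 0.369 in COR, and 0.163 in GP. From high to low the cartilage sums had the order SAG, GP, PF, COR, with PF and COR nearly equal. The choroid plexus sums had the order SAG, PF, COR, GP. *Fos* had the order SAG, GP, COR, PF, at 7.03 times its GP level in SAG and 2.84 times its PF level in GP. Its COR and PF levels were also close, at 124 and 115 FPKM. The part of other cells in the SAG levels was not tested, and in bulk RNA a larger share of cells that express a gene cannot be told apart from more RNA per cell. None of the 12 housekeeping genes was 3-fold apart in any of the 6 comparisons. Of all genes compared, 1.2% to 9.04% were in a given direction, depending on the comparison.

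**Figure D2:**
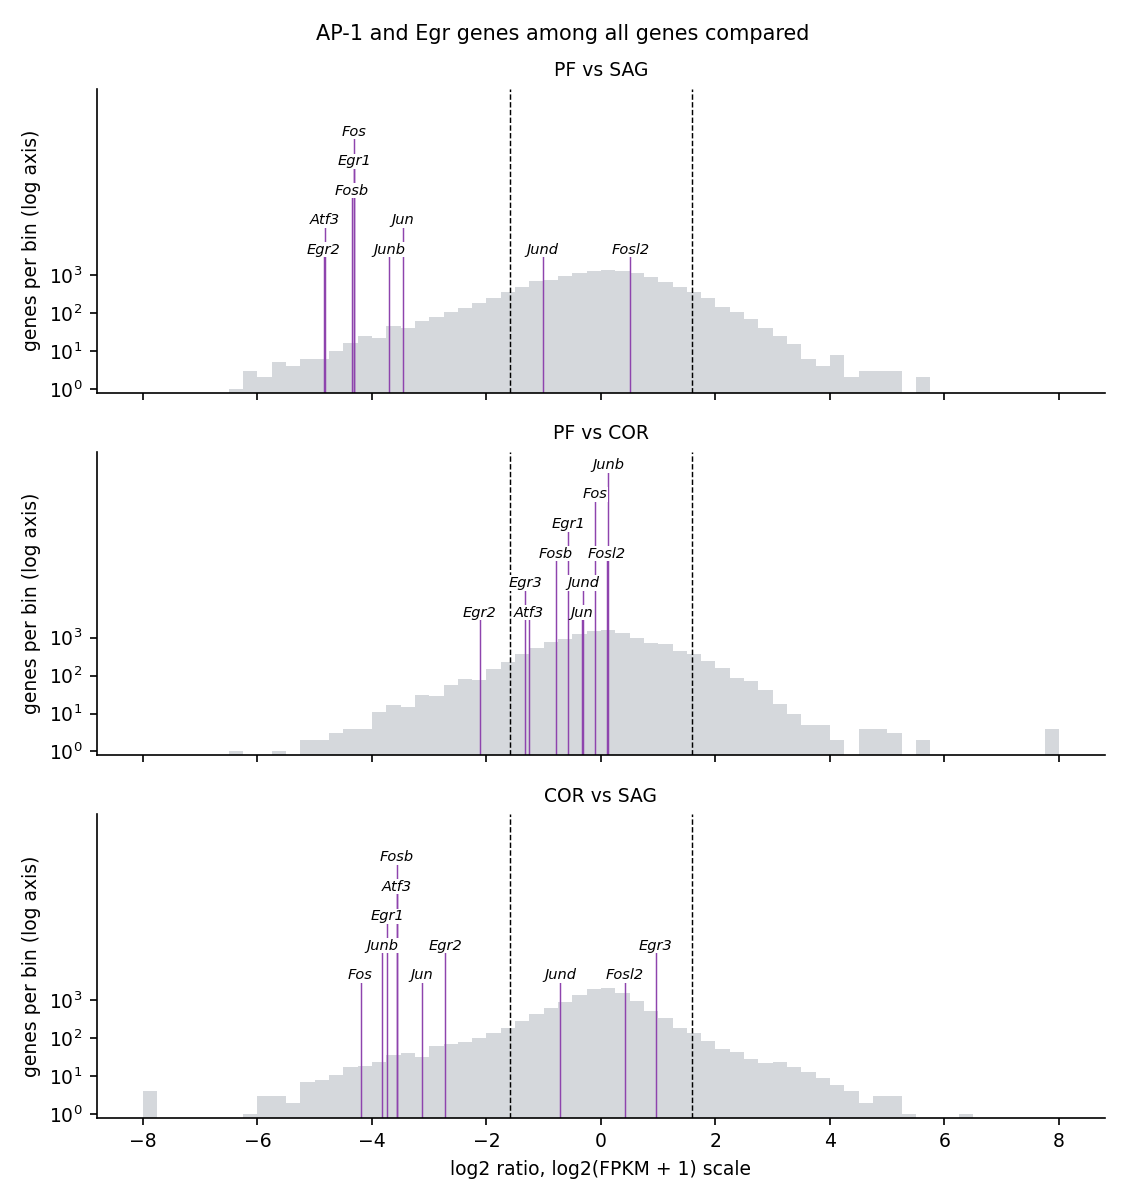
Histogram of the log2 ratio of all genes compared in each pair of suture libraries, with lines at the AP-1 and Egr genes and dashed lines at 3-fold. Heights of the labelled lines carry no value, and ratios beyond 8 are drawn in the outermost bin. In PF vs SAG and COR vs SAG 7 genes stand left of the dashed line, and in PF vs COR 1 gene, *Egr2*, does.

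The comparison of the patent sutures with each other gave the same set of 7 genes, lower in COR than in SAG. This was 7 of 10 genes, against 6.15% of all 12720 genes compared, and 3.11% of those were higher in COR. This comparison shares its SAG library with the one above, so the lists are not independent. The 7 log2 ratios ran from -4.20 for *Fos*, 18.5-fold lower in COR by the plain ratio, to -2.72 for *Egr2*, 7.70-fold lower. Of the 3 remaining genes, *Jund* was at -0.71, *Fosl2* at 0.41, and *Egr3* at 0.95 on the log2(FPKM + 1) scale. The median of the 10 genes was -3.34, and that of all genes compared -0.02.

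Between the fusing PF and the patent COR suture 8 of the 10 genes were lower in PF, most by less than 3-fold. *Egr2* was 1 of 10 that was 3-fold or more lower in PF, at a log2 ratio of -2.12, and 0 were higher. By the plain ratio of FPKM *Egr2* was 12.7-fold lower in PF, *Fosb* 3.89-fold, and *Atf3* 2.62-fold, and *Egr3* was listed at 0 in PF. Of all 12853 genes compared, 4.87% were lower and 6.81% higher in PF, so this count was near the background. *Egr3* and *Atf3* lay just inside 3-fold, at -1.33 and -1.26, while *Fos*, *Junb*, and *Fosl2* were between -0.11 and 0.13. The median of the 10 genes was -0.45 against 0.05 for all genes. The count of 1 was between 0 and 3 under other settings.

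Against the GP reference the sutures lay on both sides. In SAG 7 of 10 genes were 3-fold or more higher than in GP, where 4.8% of all 12929 genes compared were higher and 3.86% lower. These were again *Fos*, *Fosb*, *Jun*, *Junb*, *Egr1*, *Egr2*, and *Atf3*. The widest was *Egr1*, 8.85-fold higher in SAG by the plain ratio, and *Atf3* and *Egr2*, at log2 ratios of 1.67 and 1.66, were just past the 3-fold line of 1.58. In PF 4 of 10 genes, *Fosb*, *Egr2*, *Egr3*, and *Atf3*, were lower than in GP, where 6.24% of 13101 genes were lower and 5.72% higher. *Egr3* was barely past the line at -1.60, and *Fos* barely short of it at -1.50. The count of 4 was between 1 and 7 under other settings. In COR 1 of 10 genes, *Atf3*, was lower than in GP at -1.90, where 3.2% of 12209 genes were lower and 1.2% higher. Relative to GP the medians of the 10 genes were 2.10 for SAG, -0.78 for COR, and -1.34 for PF, and the medians of all genes compared were between 0.02 and 0.03. These 3 comparisons share the GP library.

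**Figure D3:**
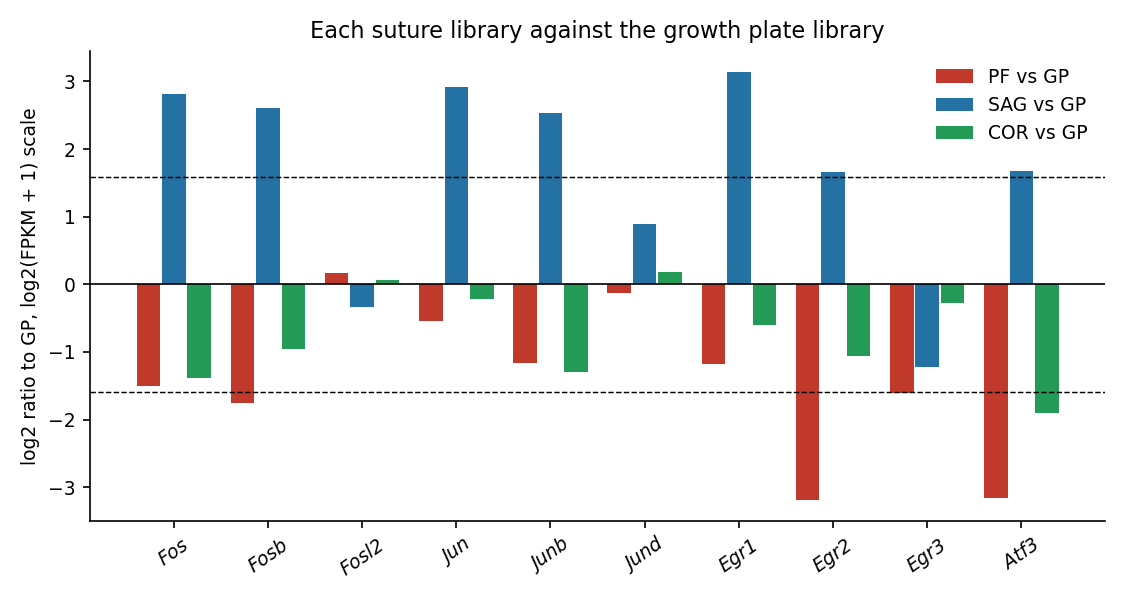
Log2 ratio of each suture library to the GP library on the log2(FPKM + 1) scale, with dashed lines at 3-fold. The SAG bars of 7 genes reach above the upper line, the PF bars of 4 genes reach below the lower line, and the COR bar of *Atf3* does.

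Taking SAG against each other library at once, 7 of the 10 genes were 3-fold or more above all of PF, COR, and GP. Of all 13998 genes 399 were, or 2.85%. The 3 that were not are *Fosl2*, *Jund*, and *Egr3*.

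The makeup of each family also differed between libraries. In the Fos family *Fos* was 98.8% of the summed FPKM in SAG, 97.6% in GP, 96.7% in PF, and 94.5% in COR, with *Fosl1*, listed at 0 in PF, counted as the remaining family gene. *Fosl2* was 2.99% of the family in PF and 0.0944% in SAG. There were 32.3 *Fos* transcripts per *Fosl2* transcript by FPKM in PF and 38.1 in COR, but 1046 in SAG and 107 in GP. In the Jun family *Jund* led in PF with 44.0% and in COR with 47.6%. *Junb* led in SAG with 50.9% and in GP with 43.9%, and *Jund* was 11.7% in SAG. *Jun* varied less, from 24.7% in GP to 37.4% in SAG. In the Egr family *Egr1* held 99.3% in PF, 96.5% in SAG, 93.5% in the COR library, and 91.1% in GP, with *Egr4* as the remaining gene. While *Fos* and *Egr1* each ranged about 20-fold over the libraries, the ratio of *Egr1* to *Fos* stayed between 0.442 in GP and 0.766 in COR, and was 0.552 in PF and 0.556 in SAG. Summed Fos family FPKM was 0.763 of the Jun family sum in SAG, 0.548 in GP, 0.299 in PF, and 0.288 in COR.

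**Figure D4:**
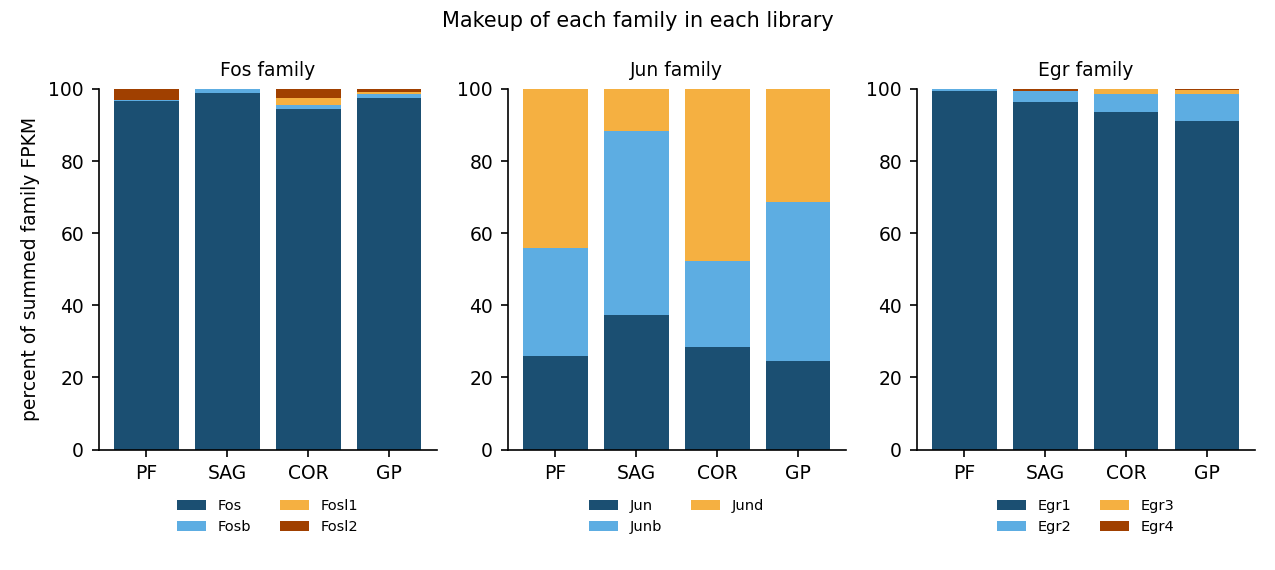
Share of each gene in the summed FPKM of the Fos, Jun, and Egr families in each library, in percent. The Fos and Egr bars are nearly all *Fos* and *Egr1*, while the share of *Jund* in the Jun family drops from 44.0% in PF and 47.6% in COR to 11.7% in SAG.

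Upstream of these genes, the genes of the factors that switch them on were less than 3-fold apart. Of 9 genes for serum response factor, its Elk and Mkl partners, and the CREB group, 0 were 3-fold apart in any of the 6 comparisons, and their sum ran from 58.0 FPKM in PF to 75.5 in GP. The highest of them, *Elk3*, was at 17.9 FPKM in SAG, 21.4 in GP, 17.4 in COR, and 16.1 in PF. Of 14 MAP kinase pathway genes, *Rps6ka5* was over 3-fold lower in PF than in SAG, at 0.203 and 4.17 FPKM, and *Mapk7* over 3-fold higher in PF than in GP, at 31.5 and 8.41 FPKM. No other of them was 3-fold apart on this scale in any of the 6 comparisons. Of all genes compared, 1.2% to 9.04% were that far apart in a given direction, depending on the comparison. The counts of the factor and kinase lists were thus near the background. By the plain ratio of FPKM *Rps6ka5* was also 12.1-fold lower in PF than in GP and 7.33-fold lower than in COR. *Map2k2*, a kinase that activates ERK, was the highest of that list at 99.6 FPKM in PF and 63.4 in SAG. These are RNA levels and say nothing of the activity of the kinases.

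Genes that dampen the response were compared next. Of 8 phosphatases that act on MAP kinases, 4 were 3-fold or more lower in PF than in SAG and 3 lower in PF than in GP, and 2 of 7 compared were lower in PF than in COR. Of all genes compared, 9.04%, 6.24%, and 4.87% were. *Dusp1* was the 1 of 8 lower in COR than in SAG, beside 6.15% of all genes, and the 1 of 7 higher in SAG than in GP, beside 4.8%. The median log2 ratio of the list was -1.60 for PF vs SAG and -0.03 for SAG vs GP. *Dusp1* was at 483 FPKM in SAG, 155 in GP, 75.6 in COR, and 41.7 in PF. *Dusp6*, which acts on ERK, was at 24.8 FPKM in SAG, 24.4 in GP, 16.6 in COR, and 2.26 in PF, so SAG and GP were level there. *Dusp5* was highest in GP, at 16.4 FPKM against 6.37 in SAG and 0.124 in PF, and *Dusp10* highest in COR, at 5.85. Of 6 genes of mRNA turnover, *Zfp36*, which speeds the decay of AU-rich transcripts such as *Fos*, was the one 3-fold apart between sutures, at 914 FPKM in SAG, 157 in GP, 68.4 in COR, and 47.8 in PF.

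A further list of 39 immediate early and stress-response genes was compared. In PF 20 of 37 compared were 3-fold or more lower than in SAG and 0 were higher, with a median log2 ratio of -1.67. In COR 18 of 37 were lower than in SAG and 0 were higher. In SAG 13 of 37 were higher than in GP and 2 lower. Between PF and COR 3 of 36 were lower in PF and 0 higher, beside 4.87% and 6.81% of all genes. Of all genes compared, 9.04% were lower in PF than in SAG and 6.15% lower in COR than in SAG. Against GP 4.8% were higher and 3.86% lower in SAG. The genes farthest apart were *Nfkbiz*, *Gem*, *Nr4a1*, *Btg2*, *Zfp36*, and *Csrnp1*. *Nr4a1*, an orphan nuclear receptor, was at 174 FPKM in SAG, 44.0 in GP, 11.5 in COR, and 6.59 in PF, the order seen for *Fos*. *Nfkbiz*, a regulator of NF-kappaB targets, was at 40.0 FPKM in SAG, 8.34 in GP, 3.77 in COR, and 0.567 in PF. *Btg2*, an inhibitor of proliferation, was lowest in COR at 13.3 FPKM, with 30.8 in PF and 299 in SAG. *Gem*, a small GTPase, was at 111 FPKM in SAG, 15.5 in GP, 5.06 in COR, and 3.66 in PF, and *Csrnp1* ranged from 0.198 in PF to 19.9 in SAG. The genes 3-fold or more above all other libraries in SAG were 13 of the 39, among them *Ier2*, *Ier3*, *Klf2*, *Socs3*, and *Irf1*, again beside 2.85% of all genes. Not all immediate early genes shared this: *Myc*, *Klf4*, *Plk2*, and *Ctgf* were among 11 of the 37 with an FPKM of 1 or more that were not highest in SAG. The *Myc* level was 28.2 FPKM in SAG, 42.0 in GP, 51.9 in COR, and 22.7 in PF.

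**Figure D5:**
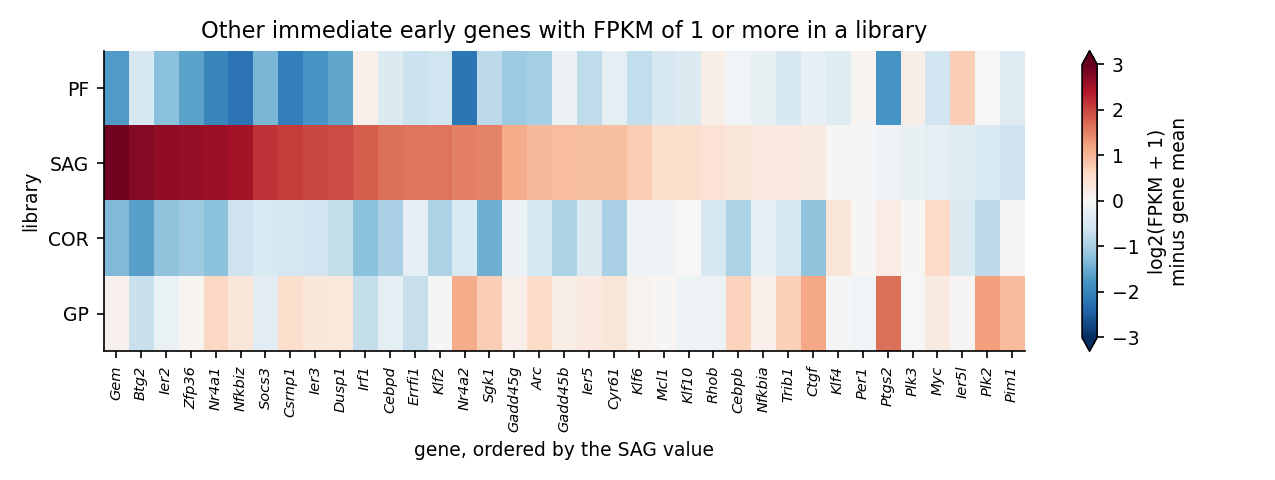
Each column is an immediate early gene outside the 10, each row a library, and the colour is log2(FPKM + 1) minus the mean of that gene over the 4 libraries, with genes ordered by the SAG value. The left part of the SAG row is red and the same part of the PF row blue, as for *Gem*, *Nr4a1*, and *Nfkbiz*, while *Ptgs2* and *Plk2* are highest in GP.

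Other zipper genes and the partners of the Egr proteins were also compared. Of 12 further zipper genes, 10 were compared between PF and SAG, with 2 at 3-fold or more lower and 1 higher in PF. Of all genes compared there, 9.04% were lower and 6.64% higher. Between PF and COR 3 of 11 were lower and 1 higher in PF, beside 4.87% and 6.81% of all genes. Between COR and SAG 0 of 11 were 3-fold apart. Their median log2 ratio was -0.66 between PF and COR, where that of the 10 genes was -0.45, and -0.96 between PF and SAG. *Atf2*, a Jun partner, was at 3.87 FPKM in PF and between 15.0 and 19.5 in the others, and *Batf3* was at 15.4 in GP, 7.56 in PF, 0.986 in COR, and 1.53 in SAG. Of the 3 Egr-related genes outside the 10, *Egr4* was at 6.77 FPKM in SAG and under 1 in the others. The corepressor genes *Nab1* and *Nab2* were not 3-fold apart between sutures on the log2(FPKM + 1) scale. By the plain ratio *Nab1* was 3.16-fold lower in PF than in COR.

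Among genes known as AP-1 targets the order of *Fos* was found for 1 of 13 with an FPKM of 1 or more, *Mmp9*, a share near the 9.12% of all genes. Of the 15 on this list, 7 of the 12 compared were 3-fold or more higher in COR than in SAG and 1 was lower. Of all genes compared there, 3.11% were higher and 6.15% lower in COR. Between PF and SAG 3 of the 12 were higher and 2 lower in PF, beside 6.64% and 9.04% of all genes. *Mmp9*, a gelatinase, was at 301 FPKM in SAG, 154 in GP, 29.9 in COR, and 10.2 in PF. *Mmp13*, a collagenase, was highest in GP at 605 FPKM, with 346 in SAG, 298 in COR, and 28.9 in PF. *Spp1*, a bone matrix protein, went the other way, at 617 FPKM in SAG, 6882 in GP, 8324 in COR, and 1649 in PF. *Bglap*, the osteocalcin gene, was at 67.1 FPKM in SAG, 159 in GP, 790.1 in COR, and 426 in PF. *Cd44* and *Plaur* were also lowest in SAG, at 4.001 and 5.05 FPKM, and highest in COR, at 75.1 and 73.4. Of 8 genes known as Egr targets, 2 were lower in PF than in SAG and 3 lower in PF than in COR. Of all genes compared, 9.04% and 4.87% were. Between COR and SAG 0 of the 8 were lower and 1 was higher in COR, beside 6.15% and 3.11% of all genes. In SAG 0 were higher than in GP, beside 4.8% of all genes, and in PF 2 were lower than in GP, beside 6.24%. In COR 1 was higher than in GP, beside 1.2%. *Cdkn1a*, an inhibitor of the cell cycle, was at 160.2 FPKM in SAG, 193 in GP, 150.1 in COR, and 37.7 in PF. *Tgfb1* was highest in COR at 30.2 FPKM, and *F3*, the tissue factor gene, was at 0.161 FPKM in PF and between 8.75 and 13.9 in the others. *Bglap* is also one of the skeletal markers given above.

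Heat shock genes, a list of protein-folding genes that cells raise under stress, were compared beside them. Of 11, 4 were 3-fold or more lower in PF than in SAG, 2 lower in COR than in SAG, and 1 higher in SAG than in GP. Of all genes compared, 9.04%, 6.15%, and 4.8% were. *Dnajb1* was at 451 FPKM in SAG, 69.0 in GP, 40.1 in COR, and 60.9 in PF. *Hspa1a* was at 101 FPKM in SAG, 51.5 in GP, 38.2 in COR, and 6.44 in PF, but it shares nearly all of its sequence with *Hspa1b*, so the reads of these genes may be split between them. *Hsp90aa1* was at 118 FPKM in SAG, 70.5 in GP, 54.2 in COR, and 34.5 in PF. *Hspb1* was level between GP and SAG, at 42.1 and 41.4 FPKM, and was lower in PF at 25.9 and in COR at 9.16. The sum of the list was 1838 FPKM in SAG, 1015 in GP, 858 in COR, and 766 in PF. Whether the cells were under stress was not tested.

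The genes most like *Fos*, *Jun*, and *Egr1* in pattern were sought among 9794 genes outside the 10 that reached an FPKM of 5 in any library, by the Euclidean distance of mean-centred log2(FPKM + 1) values over the 4 libraries. Nearest to *Fos* were *Zcchc18* at a distance of 0.253, *Gem* at 0.256, *Zfp36* at 0.371, *Ier2* at 0.391, and *A330048O09Rik* at 0.470. *Gem*, *Zfp36*, and *Ier2* are immediate early genes, and *Ier2* was at 1610.3 FPKM in SAG and 105 in PF. Within the 10, *Junb* lay at 0.440 from *Fos*, *Fosb* at 0.541, *Egr1* at 0.563, *Jun* at 1.03, *Atf3* at 1.26, *Egr2* at 1.64, and *Jund* at 2.79. Nearest to *Egr1* were *Sct*, *A330048O09Rik*, *Nme5*, *Prom1*, and *Ier2*, at 0.207 to 0.411. *Jun* had no immediate early gene among its 5 nearest, which were *1700009P17Rik*, *Apoc1*, *1700007G11Rik*, *Zbtb18*, and *Hes5* at 0.114 to 0.284. Those 5 were much less abundant, between 9.42 and 11.997 FPKM in SAG and under 1 in each other library. The added 1 understates the ratios of low genes, so a small distance need not mean a similar fold by the plain ratio. *Zcchc18* was at 17.9 FPKM in SAG, 0.165 in PF, and 0.0261 in COR, where *Fos* was at 2298, 115, and 124. All the genes named as near were highest in SAG, and 4 libraries are too few to compare patterns more finely.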

How the data were processed

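RNA of sorted cells from 4 tissues, 1 library each, was mapped by the authors to mm9 with STAR 2.5.1b, and Cuffdiff (Cufflinks 2.2.1) gave the deposited values, FPKM per gene symbol. How Cuffdiff scaled the libraries is not given in the sources used here. Samples were assigned to tissues from their labels. Ratios were taken on log2(FPKM + 1) for genes that reached an FPKM of 1 in either library, and 3-fold was the count threshold. Without replicates no test was made and no interval is given, since FPKM holds no counts. Relative depth came from the smallest step of FPKM times transcript length. The 10 genes and all gene lists were chosen with earlier results of these data known. From each other list the genes named were at most 6 that were farthest apart, 3-fold or more between sutures and reaching an FPKM of 5, or else the highest gene. Other genes were named after their values were seen. A gene that this rule names is not reported here. Alternatives were a pseudocount of 0.1 or none, median ratio, quantile, and *Gapdh* scaling, other filters, a 2-fold threshold, and a loess correction for GC content (span 0.3), with GENCODE transcripts of mm9 for 80.8% of symbols. Promoter windows were RefSeq's. The steps were tested on simulated data. Python 3.11.15, numpy 2.4.6, pandas 2.3.3, statsmodels 0.14.6, and matplotlib 3.10.9 were used.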

Additional observations from a re-analysis of the deposited data

How the results depend on the processing

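No direction past 3-fold reversed under any alternative, and 492 of 505 ratios of the 10 genes kept their side of the threshold, with 3 falling below it and 10 passing it. The count of 7 genes for PF vs SAG, COR vs SAG, and SAG vs GP moved by less than 1.5 times under every alternative. With an FPKM of 1 or more in both libraries the median log2 ratio of PF vs SAG was -3.70, because low genes dropped out. The smaller counts moved more. For PF vs COR the count of 1 became 3 with a pseudocount of 0.1, 0 with an FPKM of 1 or more in both libraries, 2 with the GC correction, 3 at 2-fold, and 2 with no pseudocount, an alternative chosen after the data were seen. For PF vs GP the count of 4 became 2 relative to *Gapdh*, 2 where either library had to reach an FPKM of 5, 1 with an FPKM of 1 or more in both, and 7 at 2-fold. For COR vs GP the count of 1 became 4 at 2-fold. *Jund* in PF vs SAG reached -1.71 with the GC correction. *Fos* in PF vs COR, under 3-fold, changed sign to 0.14 relative to *Gapdh*, which shifted the median of all genes by 0.24, and *Junb* there to -0.35 with the GC correction. Relative to *Gapdh*, *Jund* in PF vs GP went from -0.13 to 0.33 and *Jun* in COR vs GP from -0.21 to 0.003, both also under 3-fold. The cause was not tested. No paired analysis was possible because a tissue was represented by 1 library, with no replicate to pair. Depth limits *Egr3* in PF and SAG and *Fosb* and *Egr2* in PF.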
